A study of Mus musculus with 16 samples.

Results

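Some mouse odorant receptors are known by name because they were among the first to be given a ligand or to be tagged in the genome, and 6 of them are described here. They are I7 (Olfr2), MOR23 (Olfr16), P2 (Olfr17), mOR-EG (Olfr73), M71 (Olfr151) and M72 (Olfr160). They were chosen by gene symbol, and 5 of the 6 had a probe set named in the platform annotation, each a single one. M71 had no named probe set, so no value is given for it. The 5 stand among 1091 receptor genes with an Olfr symbol, 10 of them named as pseudogenes, and among 22206 tested probe sets.

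The samples were sorted olfactory mucosa cells of S100a5-tauGFP mice on C57BL/6, a reporter line in which GFP follows S100a5, a gene that olfactory neurons transcribe more when they are active. The 24 mice of both sexes, aged 7 to 12 weeks, stayed singly in chambers with 3.1 L of clean air per minute for 40 hours. Once 26 hours had passed, pulses of 10 seconds came every 20 minutes, of filtered air in the vehicle arm and of isoamyl acetate, an ester with a banana smell, in the odor arm. Cells of 3 mice were pooled, 8 pools in all, and both sorted fractions of a pool, titled GFP+ and titled GFP-, went onto an array each, so 16 arrays make up 4 groups of 4. Every mouse carried the reporter. The sign of the sorted fraction in the title is the opposite of that in the cell type field of the labels, so fractions are called here by their titles.

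An olfactory sensory neuron transcribes a single odorant receptor gene, and the receptor it makes sets which odors the cell detects and which glomeruli of the olfactory bulb its axon reaches. The assay asks whether an odor shifts the neurons of some receptors toward the fraction with more GFP. More RNA of a receptor in a fraction can mean more neurons of that kind or more RNA in each, which cannot be told apart in bulk samples. Of the receptors described here, I7 is known for its response to octanal and related aldehydes, MOR23 to lyral, mOR-EG to eugenol, and M71 and M72 to acetophenone. P2 is the receptor whose tagged neurons first showed how axons of a single receptor type converge on glomeruli.

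All values are log2 signals on the authors' scale, on which a difference of 1 is a factor of 2, and sort differences are signed so that a positive value is higher in titled GFP+. S100a5 itself was lower in titled GFP+ in 8 of 8 pools, with differences of -0.86 to -1.45, which is the order of the cell type field and not that of the titles. Omp, the defining marker of mature olfactory neurons, was high in every library, from 17.99 to 18.59. Markers of other cells were higher in titled GFP+: of the macrophage and neutrophil list, with 16 of 18 genes measured, 16 were higher in vehicle and 15 with odor. Their mean level ran from 12.15 to 12.80 in vehicle libraries titled GFP+ and from 5.70 to 6.53 in those titled GFP-, where Aif1, Itgam and Camp were never above the median negative control. With odor the ranges were 12.00 to 13.52 and 5.71 to 6.79, and Ltf joined the 3 genes not above it. Mature neuron markers averaged 15.71 to 16.16 in titled GFP+ and 16.18 to 16.41 in titled GFP-. Of these 17 mature markers 2 were lower in titled GFP+ in each arm and 0 higher. Of 13 immature neuron markers 8 were higher in titled GFP+ in vehicle and 6 with odor, and of 12 sustentacular markers 9 in each arm. At the same limma adjusted p of 0.05, 10.2% of all probe sets were higher in vehicle and 11.0% with odor. The shares that were lower were 7.16% and 9.86%. The part of these differences in the receptor results was not tested.

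The 5 receptors parted between the fractions in both directions, and a short stretch upstream of the pair at the ends is shown first. MOR23 had the largest difference toward titled GFP+, and M72 was the only receptor of the 5 called lower there. RefSeq (GRCm38.p6) gave a window from 250 bases before to 50 bases after the annotated start for 4 of the 6 receptors. In the windows below the capitals mark matches to TAATNA on either strand, a core that homeodomain proteins such as Lhx2, a factor of olfactory neurons, can bind.
MOR23 (Olfr16), chr1:172956518-172956817, plus strand: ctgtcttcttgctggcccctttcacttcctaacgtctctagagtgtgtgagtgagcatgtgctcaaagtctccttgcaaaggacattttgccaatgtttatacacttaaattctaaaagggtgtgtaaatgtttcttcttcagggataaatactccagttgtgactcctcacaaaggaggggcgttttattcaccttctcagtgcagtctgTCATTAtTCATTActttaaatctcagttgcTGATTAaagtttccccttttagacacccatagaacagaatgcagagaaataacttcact
M72 (Olfr160), chr9:37712231-37712530, minus strand: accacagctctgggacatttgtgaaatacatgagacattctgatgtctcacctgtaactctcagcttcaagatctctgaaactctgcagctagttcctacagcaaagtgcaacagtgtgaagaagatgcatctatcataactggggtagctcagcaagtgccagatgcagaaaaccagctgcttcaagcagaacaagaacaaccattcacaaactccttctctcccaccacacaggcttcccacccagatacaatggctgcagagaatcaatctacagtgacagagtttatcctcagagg
The MOR23 window held 3 matches, at positions -39, -32 and -9 counted from the annotated start, and the M72 window held 0. P2 and mOR-EG had 1 match each. The motif is common: 26.5% of 32851 windows of this length held it, and 65.8% of 944 receptor windows. The palindromic core of the Olf/Ebf factors, which has 10 letters with 2 of them free, searched on both strands, was in 0 of the 4 windows, in 0.904% of all windows and in 0.530% of receptor windows. The RefSeq models of P2 and mOR-EG begin with an ATG and that of M72 has an ATG 3 bases after its start, so those windows may lie before the coding start and not before a transcription start.

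**Figure D1:**
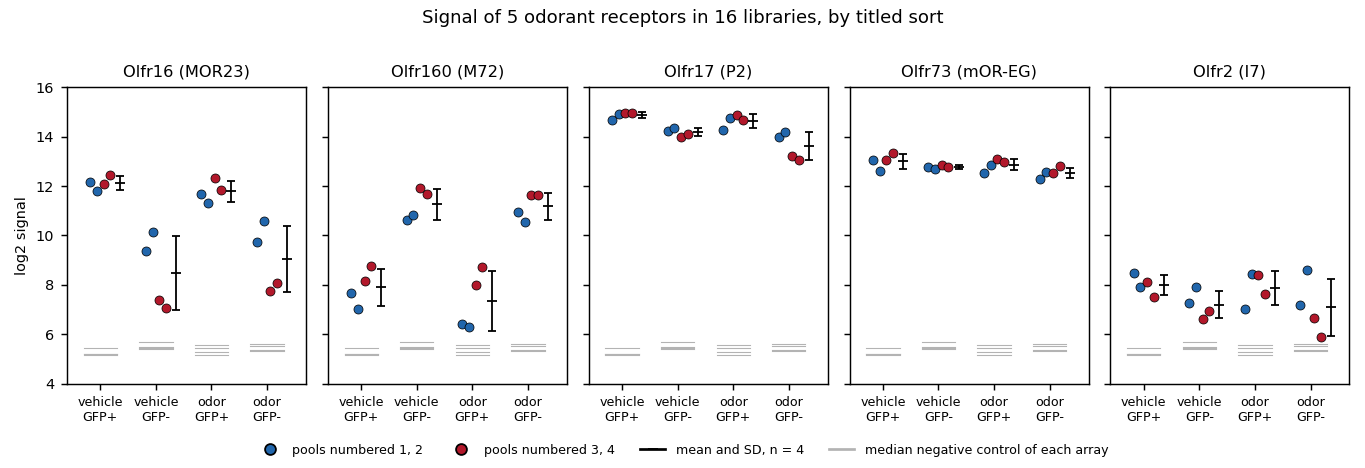
Log2 signal (vertical axis) of the 5 measured receptors in each of the 16 libraries, grouped by treatment and titled sort, with blue points for pools numbered 1 and 2, red points for pools numbered 3 and 4, the mean and SD of 4 libraries in black and the median negative control of each array in grey. MOR23 is high in titled GFP+ and M72 in titled GFP-. P2 spans a range of 1.89 and is higher in titled GFP+ within each arm, mOR-EG spans 1.02, and I7 stays close to the controls.

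In mice given filtered air, MOR23 and P2 were higher in titled GFP+ than in titled GFP- and M72 was lower, while mOR-EG and I7 were not called. So 3 of the 5 receptors passed limma's adjusted p of 0.05, 2 higher and 1 lower. The same threshold was passed by 17.3% of all tested probe sets and by 63.7% of the receptor genes, so 3 of 5 is near the share among receptors. Called higher were 10.2% of all probe sets and 22.9% of receptors, and called lower 7.16% and 40.8%. The groups of 4 did not overlap for those 3 receptors, as for 23.3% of all probe sets and 65.0% of receptors. The median difference of the 5 was 0.68, beside -0.48 over all receptors and -0.13 over all probe sets. With isoamyl acetate the same 3 receptors were called in the same directions, beside 20.9% of all probe sets and 65.2% of receptors. Higher were 11.0% of all probe sets and 22.3% of receptors, and lower 9.86% and 42.9%. Their groups again did not overlap, beside 21.9% and 58.8%. The median of the 5 was then 0.78, beside -0.56 over all receptors.

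MOR23, the lyral receptor, was high in every library titled GFP+ and low and uneven in those titled GFP-. In vehicle pools 1 to 4 it stood at 12.18, 11.78, 12.10 and 12.43 in titled GFP+ and at 9.36, 10.13, 7.37 and 7.06 in titled GFP-. With odor it stood at 11.69, 11.32, 12.33 and 11.84 in titled GFP+ and at 9.74, 10.59, 7.74 and 8.09 in titled GFP-. Every library titled GFP+ was above every library titled GFP-, and within titled GFP- the pools numbered 1 and 2 were above those numbered 3 and 4. The group means were 12.12 ± 0.27 and 8.48 ± 1.50 in vehicle (SD, n = 4) and 11.79 ± 0.42 and 9.04 ± 1.35 with odor. The sort difference was 3.64 in vehicle (SE 0.63, limma adjusted p = 0.000405). It was 2.75 with odor (SE 0.63, limma adjusted p = 0.00442). In the order of the 4 means, vehicle and odor were neighbours within each titled sort and overlapped. MOR23 exceeded the 95th percentile of the negative controls in all 8 libraries titled GFP+ but in only 2 of the 8 titled GFP-, the pools numbered 2, so no fold is given.

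M72, a receptor for acetophenone, ran the other way. In vehicle pools 1 to 4 it stood at 7.65, 7.03, 8.17 and 8.78 in titled GFP+ and at 10.62, 10.81, 11.93 and 11.68 in titled GFP-. With odor it stood at 6.40, 6.28, 8.0 and 8.71 in titled GFP+ and at 10.93, 10.54, 11.64 and 11.62 in titled GFP-. Each library titled GFP- lay above each library titled GFP+, and in each of the 4 groups the pools numbered 3 and 4 lay above those numbered 1 and 2. The group means were 7.91 ± 0.75 against 11.26 ± 0.64 in vehicle (SD, n = 4) and 7.35 ± 1.20 against 11.18 ± 0.54 with odor. The sort difference was -3.35 in vehicle (SE 0.50, limma adjusted p = 8.64e-05). With odor it was -3.83 (SE 0.50, limma adjusted p = 1.87e-05). M72 was above the 95th percentile of the negative controls in all 8 libraries titled GFP- and in 0 of the 8 titled GFP+, so no fold is given. M71 is a close relative of M72, and whether the M72 probe set also reads M71 RNA was not tested. RefSeq (GRCm38.p6) lists M71 as a transcribed pseudogene and the other receptors described here as protein-coding.

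P2, the receptor of the first tagged axons, exceeded the 95th percentile of the negative controls in all 16 libraries and had a sort difference called in both arms. In vehicle pools 1 to 4 it stood at 14.67, 14.91, 14.95 and 14.94 in titled GFP+ and at 14.24, 14.36, 14.00 and 14.12 in titled GFP-. With odor it stood at 14.25, 14.75, 14.89 and 14.69 in titled GFP+ and at 13.97, 14.19, 13.22 and 13.05 in titled GFP-. Titled GFP+ was the higher fraction in each pool, and the odor pools numbered 3 and 4 titled GFP- were the lowest of all 16 libraries. The sort difference was 0.68 in vehicle (SE 0.22, limma adjusted p = 0.0375), a factor of 1.61. With odor it was 1.03 (SE 0.22, limma adjusted p = 0.00206), a factor of 2.05. The vehicle call was lost with the pool as a block (adjusted p = 0.0591) and under median centring, where the difference was 0.31 (adjusted p = 0.218). Leaving out vehicle pool 1, 2, 3 or 4 gave differences of 0.77, 0.73, 0.60 and 0.64 and also ended the call, with adjusted p = 0.0750, 0.0911, 0.164 and 0.145. Over all alternatives adjusted p for this difference ran from 0.00186 to 0.260.

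mOR-EG, the eugenol receptor, varied over a range of 1.02 across the 16 libraries and was not called. In vehicle pools 1 to 4 it stood at 13.07, 12.59, 13.06 and 13.32 in titled GFP+ and at 12.76, 12.70, 12.86 and 12.76 in titled GFP-. With odor it stood at 12.54, 12.86, 13.10 and 12.98 in titled GFP+ and at 12.30, 12.56, 12.52 and 12.80 in titled GFP-. The groups overlapped, and titled GFP+ was the higher fraction in 7 of 8 pools. The sort difference was 0.24 in vehicle (95% interval -0.10 to 0.58, limma adjusted p = 0.340) and 0.33 with odor (-0.01 to 0.67, limma adjusted p = 0.166). Its direction depended on the scaling of the arrays: median centring, which moves the median sort difference of all probe sets from -0.13 to -0.50 in vehicle, gave -0.13 and -0.04. Centring on mature neuron markers gave 0.67 with odor, which was then called (adjusted p = 0.0110, in a range of 0.0110 to 0.832 over the alternatives).

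I7, the octanal receptor, was not called and lay near the controls. In vehicle pools 1 to 4 it stood at 8.46, 7.93, 8.12 and 7.49 in titled GFP+ and at 7.28, 7.90, 6.60 and 6.96 in titled GFP-. With odor it stood at 7.03, 8.42, 8.40 and 7.62 in titled GFP+ and at 7.18, 8.62, 6.66 and 5.89 in titled GFP-. The fractions overlapped in both arms, and titled GFP+ was the higher in 6 of 8 pools. The signal was 0.31 to 3.27 above the median negative control in all 16 libraries but above the 95th percentile of the controls in 0. The sort difference was 0.81 in vehicle (95% interval -0.16 to 1.79, limma adjusted p = 0.251) and 0.78 with odor (-0.20 to 1.75, limma adjusted p = 0.251). Both intervals take in 0 and reach further toward titled GFP+ than toward titled GFP-.

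**Figure D2:**
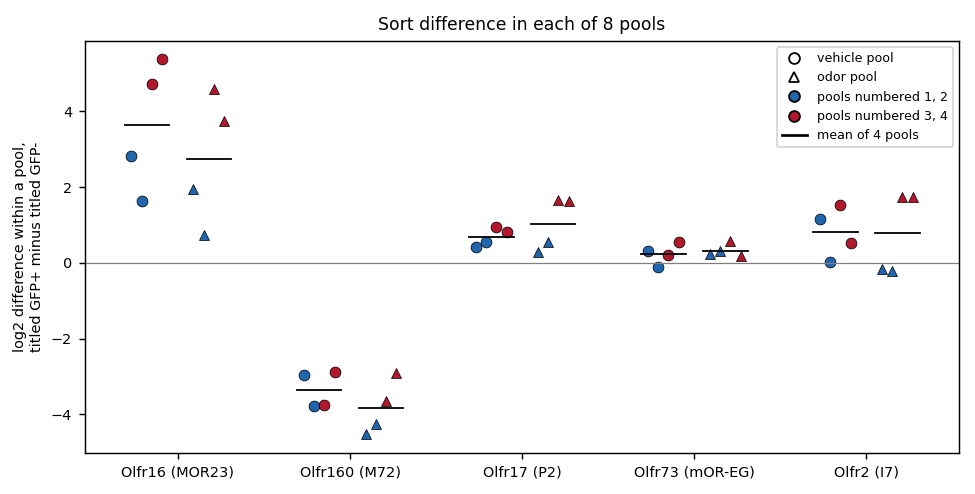
Log2 difference between the 2 libraries of a pool, titled GFP+ minus titled GFP- (vertical axis), for each receptor, with circles for vehicle pools, triangles for odor pools, blue for pools numbered 1 and 2, red for 3 and 4, and a bar at the mean of 4 pools. MOR23 lies above 0 and M72 below 0 in all 8 pools, and for MOR23 and P2 the red points lie above the blue ones.

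The pools fell into 2 sets by number for several receptors, a split seen in the values and not given by the labels. The first principal component of the deviations from group means held 22.9% of their variance and had the pools numbered 1 and 2 on its negative side and those numbered 3 and 4 on its positive side in all 16 libraries. The MOR23 sort difference was 0.73 to 2.82 in pools numbered 1 and 2 and 3.75 to 5.37 in those numbered 3 and 4. For P2 it was 0.28 to 0.56 and 0.82 to 1.66. These ranges did not overlap for 2 of the 5 receptors, beside 4.90% of all probe sets and 12.7% of receptors.

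The split lay mainly in the libraries titled GFP- for MOR23 and I7 and in both fractions for M72. In titled GFP-, MOR23 was at 9.36 to 10.59 in pools numbered 1 and 2 and at 7.06 to 8.09 in the others. In the same fraction I7 was at 7.18 to 8.62 and at 5.89 to 6.96, and M72 at 10.54 to 10.93 and at 11.62 to 11.93. In titled GFP+, M72 was at 6.28 to 7.65 in pools numbered 1 and 2 and at 8.0 to 8.78 in the others. With the arms joined, the ranges did not overlap for 3 of 5 receptors in titled GFP-, beside 6.79% of all probe sets and 17.6% of receptors. In titled GFP+ this held for 1 of 5, beside 7.29% and 15.6%. P2 in titled GFP- overlapped with the arms joined but not within either arm. It was at 14.24 to 14.36 in pools numbered 1 and 2 against 14.00 to 14.12 in vehicle, and at 13.97 to 14.19 against 13.05 to 13.22 with odor. S100a5 moved with the split in titled GFP+, at 15.46 to 15.94 in pools numbered 1 and 2 and 14.69 to 15.34 in the others. In titled GFP- it overlapped with the arms joined but was higher in pools numbered 1 and 2 within each arm. It was there at 16.51 and 16.59 against 16.14 and 16.33 in vehicle, and at 16.83 and 16.95 against 16.62 and 16.58 with odor. Omp overlapped in both fractions with the arms joined. With the arms joined, the mean levels of the mature neuron, immature neuron, macrophage and neutrophil, and sustentacular lists also overlapped between the sets. Within each arm the macrophage and neutrophil mean in titled GFP+ was higher in pools numbered 1 and 2. It was 12.76 and 12.80 against 12.15 and 12.63 in vehicle, and 13.52 and 13.09 against 12.00 and 12.90 with odor. The sustentacular mean there was separate with odor but not in vehicle. The immature mean in titled GFP- was separate in each arm, in opposite directions. The part of S100a5 or of other cells in the split was not tested.

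Within each set of pools taken alone, the sort differences of MOR23 and M72 kept their direction and were called. The sets were picked from these same values, and each fit had 2 libraries per group. Spread between the sets is left out of such fits, so their adjusted p are a description and not further support. Pools numbered 1 and 2 alone gave MOR23 sort differences of 2.23 in vehicle and 1.34 with odor (limma adjusted p = 0.00220 and 0.0328), and pools numbered 3 and 4 alone gave 5.05 and 4.17 (8.00e-06 and 1.73e-05). M72 stood at -3.38 and -4.39 in the first set and at -3.33 and -3.28 in the second, with adjusted p from 3.45e-06 to 0.000143. P2 was called only in pools numbered 3 and 4, at 0.88 and 1.65 (limma adjusted p = 0.0128 and 0.000427), against 0.49 and 0.42 in pools numbered 1 and 2 (adjusted p = 0.260 and 0.288). I7 with odor turned from -0.18 in the first set (adjusted p = 0.867) to 1.74 in the second, where it was called (adjusted p = 0.0165). A difference between the sets was not tested for P2 or I7.

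No receptor of the 5 passed the test for a change with isoamyl acetate. For the interaction, which is the sort difference with odor minus that in vehicle, 0 of 5 were called by limma and 0 of 5 had an unadjusted p below 0.05, beside 0.00450% of all probe sets and 0.0917% of receptors called. Pool differences of odor and vehicle were separate for 0 of 5, beside 2.93% of all probe sets and 3.30% of receptors. The estimate was -0.88 for MOR23 (95% interval -2.78 to 1.01), -0.48 for M72 (-1.99 to 1.02) and 0.35 for P2 (-0.30 to 1.00). It was 0.09 for mOR-EG (-0.39 to 0.57) and -0.04 for I7 (-1.41 to 1.34), and all 5 had adjusted p = 1.00 in limma. These intervals come from the fit on group means, which does not use the pairing of libraries within a pool. In that fit those for MOR23, M72 and I7 take in changes by more than a factor of 2 in either direction. That for mOR-EG takes in none. With the pool as a block the SE was 0.36 for M72 in place of 0.71, and 0.52 for I7 in place of 0.65. For MOR23 it was 0.96 in place of 0.90, and again 0 of 5 were called. Pool by pool, MOR23 differed between fractions by 2.82, 1.64, 4.73 and 5.37 in vehicle and by 1.95, 0.73, 4.59 and 3.75 with odor, and these 2 sets of 4 overlapped.

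**Figure D3:**
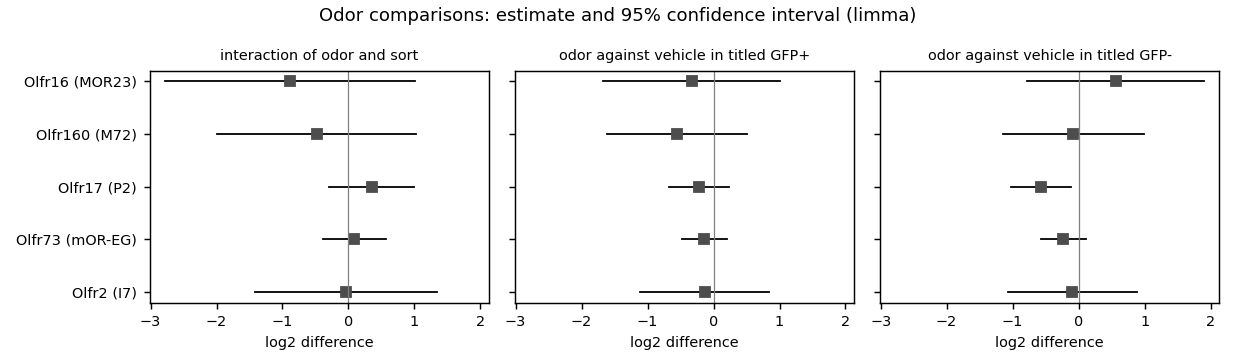
Estimated log2 difference (horizontal axis, squares) with its 95% confidence interval from limma (lines) for the 5 receptors in the interaction of odor and sort, and in odor against vehicle within each titled sort. The interval takes in 0 in every case but P2 in titled GFP-, whose adjusted p was 1.00.

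Odor was also compared with vehicle within each fraction. In titled GFP+, 0 of 5 receptors were called, beside 0.00901% of all probe sets and 0.00% of receptors, and 0 of 5 had an unadjusted p below 0.05. The groups were separate for 0 of 5, beside 2.63% of all probe sets and 2.47% of receptors. The estimates there were -0.56 for M72, -0.33 for MOR23, -0.22 for P2, -0.14 for mOR-EG and -0.13 for I7, with adjusted p in limma from 0.972 to 0.994. In titled GFP-, the fraction with more S100a5, 0 of 5 were called, beside 0.0180% of all probe sets and 0.0917% of receptors, and 1 of 5 had an unadjusted p below 0.05. The groups were separate for 0 of 5, beside 2.07% and 3.48%. The receptor with the low unadjusted p was P2, at 13.61 ± 0.56 with odor and 14.18 ± 0.16 in vehicle (SD, n = 4), a difference of -0.57 (95% interval -1.03 to -0.11, limma adjusted p = 1.00). Its 2 groups overlapped: odor pools 1, 3 and 4 were below all vehicle pools, pool 1 at 13.97 against the lowest vehicle value of 14.00, and odor pool 2 was not. In the same fraction MOR23 differed by 0.56 (-0.78 to 1.90), M72 by -0.08 (-1.14 to 0.99), mOR-EG by -0.23 (-0.57 to 0.11) and I7 by -0.10 (-1.07 to 0.88).

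**Figure D4:**
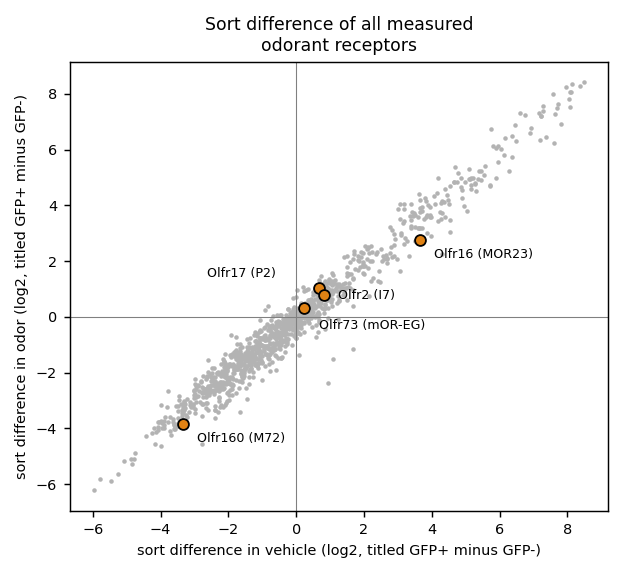
Sort difference in vehicle (horizontal axis) against sort difference with odor (vertical axis), both log2, titled GFP+ minus titled GFP-, for 1091 receptor genes in grey, with the 5 named receptors in orange. MOR23 lies on the upper arm, M72 on the lower arm, and P2, I7 and mOR-EG lie slightly above 0.

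The 5 receptors were then ranked among the 1091 receptor genes. In vehicle, 984 receptors had a smaller difference than MOR23 and 106 a larger one. For M72, 54 receptors were lower and 1036 higher. I7, P2 and mOR-EG lay above 810, 794 and 720 of the receptors. With odor 955 receptors were below MOR23 and 29 below M72.

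The genes with the highest correlation to a receptor over the 16 libraries were, for 4 of the 5, other receptors. Libraries of a pool share mice, and the sort sets much of any correlation, so r is given as a description. Olfr231, Olfr672 and Olfr736 followed MOR23 with Pearson r of 0.98, 0.96 and 0.96, and their own sort differences in vehicle were 6.48, 4.48 and 4.23. Olfr1467, Olfr571 and Olfr1328 followed M72, each with r of 0.99, with sort differences in vehicle of -3.64, -2.66 and -2.51. After the group means were taken out, r was 0.96 for Olfr231 with MOR23 and 0.95 for Olfr571 with M72, so the same libraries stood high and low within groups.

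P2 was followed by Olfr464, Olfr324 and Olfr1217, with r of 0.96, 0.93 and 0.93. Within groups its closest receptors were Olfr406 and Olfr713, both at r of 0.90, and Olfr713 lies in the same gene cluster. I7 was followed by Olfr370, Olfr63 and Olfr365, each with r of 0.89. Its closest receptors within groups were Olfr733 and Olfr716, at r of 0.94 and 0.92. Over the 16 libraries the closest genes to mOR-EG were not receptors, and r was lower. They were Tuba1b, an alpha tubulin, Cdk18, a cyclin-dependent kinase, and Cacng4, a calcium channel subunit, at 0.82, 0.82 and 0.77. Within groups these 3 stood at 0.75, 0.70 and 0.68, and the receptors Olfr518 and Olfr1160 were closer, at 0.89 and 0.88. Over the 16 libraries r of those 2 receptors with mOR-EG was -0.30 and -0.14. Among the 5, MOR23, P2 and I7 moved together within groups, with r from 0.68 to 0.82, and mOR-EG with M72 at 0.69. The r of mOR-EG with each of the first 3 was -0.06. In titled GFP-, pools numbered 3 and 4 minus 1 and 2 gave mean differences of -2.39 for MOR23, -0.59 for P2 and -1.22 for I7. For M72 and mOR-EG they were 0.99 and 0.16. In titled GFP+ they were 0.43 for MOR23, 0.22 for P2, -0.05 for I7, 1.57 for M72 and 0.35 for mOR-EG. The part of that split in r was not tested, and I7 was above the 95th percentile of the controls in 0 of 16 libraries.

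**Figure D5:**
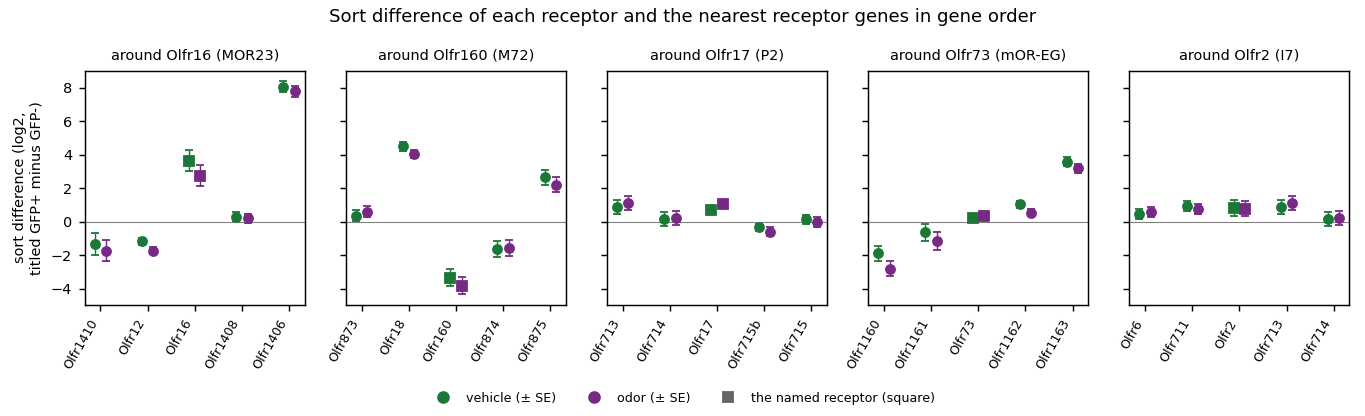
Sort difference (log2, titled GFP+ minus titled GFP-, vertical axis) with its SE for each receptor (squares) and the nearest measured receptor genes on either side in gene order (circles), in vehicle (green) and with odor (purple). The genes on either side of mOR-EG and the 2 after M72 run in both directions, and the 2 of MOR23's own cluster lie above 0. Those around I7 and P2 lie between -0.60 and 1.12. The 2 genes drawn before MOR23 and the 2 before M72 are separated from them by 482 and 159 other protein-coding genes.

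The nearest measured receptors in gene order were compared with each receptor. MOR23 on chromosome 1 is at the end of a cluster, and 482 other protein-coding genes lie between it and the receptors before it, Olfr12 at -1.16 and Olfr1410 at -1.32 in vehicle. Of the receptors of its own cluster, Olfr1408 differed by 0.27 in vehicle (SE 0.28, limma adjusted p = 0.555) and Olfr1406 by 8.06 (SE 0.33, limma adjusted p = 3.26e-11). Olfr1406 was above the median negative control in 11 of 16 libraries. M72 on chromosome 9 is likewise followed by Olfr874 at -1.62 (SE 0.47, limma adjusted p = 0.0239) and Olfr875 at 2.64 (SE 0.44, limma adjusted p = 0.000246), opposite in sign. Next to mOR-EG on chromosome 2, Olfr1160 was lower (-1.88, SE 0.45) and Olfr1162 and Olfr1163 higher (1.04, SE 0.22, and 3.58, SE 0.27), all 3 called in vehicle by limma. Olfr1163 was above the median negative control in 8 of 16 libraries, so its difference rests on values at background in the others.

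I7 and P2 share a cluster on chromosome 7 with Olfr713 and Olfr714 between them. The differences of their neighbours in vehicle were 0.45 for Olfr6, 0.96 for Olfr711, 0.89 for Olfr713, 0.16 for Olfr714, -0.32 for Olfr715b and 0.13 for Olfr715. Those of Olfr711 and Olfr713 were larger than the 0.68 of P2 and the 0.81 of I7. Of these 6 only Olfr711 was called (SE 0.30, limma adjusted p = 0.0378). Each receptor had 4 neighbours taken, which for MOR23 and M72 include the 2 beyond 482 and 159 other protein-coding genes. Those called in vehicle in the receptor's own direction were 1 for I7, 1 for MOR23, 0 for P2, 2 for mOR-EG and 1 for M72. The direction of mOR-EG and I7 is that of a difference not called. Among all receptors 22.9% were called higher in vehicle and 40.8% lower, and a departure of these counts from those shares was not tested.

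The genes that carry the signal of all odorant receptors were read from a separate list. Of its 19 genes for signalling and receptor transport, 3 were lower in titled GFP+ in vehicle and 0 higher, beside 17.3% of all probe sets called either way and 7.16% called lower. Their median difference was -0.13, the same as over all probe sets. The 3 were the phosphodiesterase Pde1c at -0.66 (SE 0.12, limma adjusted p = 0.000817), the exchanger Slc24a4 at -0.58 (SE 0.15, limma adjusted p = 0.0126) and the chloride channel Ano2 at -0.45 (SE 0.12, limma adjusted p = 0.0110). The same 3 were lower with odor, at -0.84, -0.49 and -0.51, and 0 of 19 were called in the interaction. The G protein subunit Gnal stood at -0.10 in vehicle, the adenylyl cyclase Adcy3 at -0.26 and the channel subunit Cnga2 at -0.03, none of them called.

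Other receptors known by a ligand or a gene tag were read in the same way. Of 8 measured of 9 listed, 2 were higher in titled GFP+ in vehicle and 3 lower, which is near the 22.9% and 40.8% of all receptors called in those directions. The muscone receptor Olfr1440 stood at 3.89 (SE 0.58) and Olfr1507, known as MOR28, at 8.49 (SE 0.51). Olfr15 stood at -3.90 (SE 0.26), Olfr1509, a receptor for the mouse urine thiol MTMT, at -3.27 (SE 0.24) and Olfr124 at -1.89 (SE 0.21). The same 5 were called with odor, and 0 of 8 in the interaction.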

How the data were processed

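The values used are the log2 signals that the authors deposited for each probe set of 16 Clariom S mouse arrays. The submitters' processing notes name Affymetrix Expression Console, while its version, the background correction and the normalization were not given in the sources used. cRNA was made from 50 to 100 ng of RNA per the labels' protocols. Of 28846 probe sets, 6640 controls were left out of tests, and the 5222 negative controls gave each array's background (median 5.15 to 5.67, 95th percentile 9.39 to 10.09). Array medians were 6.42 to 6.52 in titled GFP- and 6.79 to 6.90 in titled GFP+. The platform annotation named 19572 probe sets, 0 with several symbols, and all identifiers were found in RefSeq (GRCm38.p6), used for gene order and upstream windows. The array build is not given, so no array coordinates are printed. The number of arrays limits precision.

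limma (3.58.1, R 4.3.3) was fitted on 4 group means of 16 arrays, with Benjamini-Hochberg adjustment over 22206 probe sets and a threshold of 0.05, and was tested on simulated data. Replicates are separate pools of mice. The 2 libraries of a pool come from the same mice, and their deviations from group means correlated at 0.16 to 0.40. The 6 receptors and all lists were chosen with earlier results of these data known. Named were the receptors, the 3 genes with the highest r over 16 libraries, the 2 receptors with the highest r within groups, the 2 receptors on either side in gene order, and called members of the signalling and known-receptor lists. Olfr78 of the latter had no named probe set. Relatives by protein sequence were not used here. Alternatives were 3 other scalings, a filter on dim probe sets, an eBayes trend, only the groups compared, a block, each pool left out and, chosen after seeing the values, the pools numbered 1 and 2 or 3 and 4 alone and a term for these sets.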

Additional observations from a re-analysis of the deposited data

Results flagged for a closer look

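P2 (Olfr17) in vehicle libraries titled GFP+ had a replicate apart from the rest. Pool 1 stood at 14.67 while the other 3 lay between 14.91 and 14.95, a gap that takes up 0.856 of the group's range. It was the 1 group marked in this way among 30 tested, and chance marks about 1 in 20.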

How the results depend on the processing

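Of 445 refits of the 25 receptor differences, 410 kept direction and side of the threshold, 25 turned direction, 8 lost and 2 gained a call, and none of the 25 was called after turning. The counts of called receptors stayed within 2 to 3 in vehicle, 2 to 4 with odor and 0 in each of the 3 odor comparisons. With the replicate block (pool for the sort differences and the interaction, replicate number for odor against vehicle) the vehicle sort count was 2 rather than 3, P2 being lost at 0.68, and no other call changed. The labels tie odor and vehicle libraries only by number. Their deviations correlated at 0.17 to 0.28 in titled GFP+ and 0.07 to 0.41 in titled GFP-. Of the 4 libraries of the other arm in the same titled sort, 13 of 16 libraries correlated best with their own number. Each pair enters that count from both sides, and what same-numbered libraries share was not tested. Median centring turned mOR-EG to -0.13 (vehicle) and -0.04 (odor). The I7 interaction turned to 0.04 after quantile normalization, 0.06 after centring on mature neuron markers and 0.71 in pools numbered 3 and 4, and ran from -0.36 to 0.29 with a pool left out. With a pool left out, the mOR-EG interaction ran from -0.03 to 0.19, I7 in titled GFP+ from -0.32 to 0.15, I7 in titled GFP- from -0.61 to 0.30 and M72 in titled GFP- from -0.29 to 0.15. Pools numbered 1 and 2 alone turned the P2 interaction to -0.06, the I7 sort difference with odor to -0.18, and odor against vehicle in titled GFP- to 0.31 for I7 and 0.02 for M72. Pools numbered 3 and 4 alone turned the M72 interaction to 0.05 and I7 in titled GFP+ to 0.21. The causes were not tested.

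Over all probe sets the vehicle sort count of 3851 became 15630 under median centring, 2519 and 2083 in the 2 sets of pools alone, where fewer arrays entered, and the odor sort count of 4638 became 15554, 3087 and 1990, or 3037 without odor pool 1. The share of calls that were higher in vehicle was 58.7%, or 42.1% after quantile normalization, 11.3% after median centring and 84.8% after centring on mature neuron markers. With odor it was 52.8%, or 41.4%, 12.1% and 88.2%. The interaction called 1 probe set and 0 to 1 in the alternatives, and odor against vehicle called 2 in titled GFP+ and 4 in titled GFP-, and 0 to 3 and 0 to 5 in the alternatives. Against the 95th percentile of the negative controls in place of the median, libraries above background fell from 16 to 0 for I7, 10 for MOR23 and 8 for M72. The planned comparison of M71 with M72 was not run, since M71 had no named probe set.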
